A study of Mus musculus with 11 samples.

Results

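Genes of glycolysis and genes induced by low oxygen were followed in cultured mesenchymal stem cells (MSCs) from the bones of young and old mice. The set held 38 of the 28222 genes in the count table. They were listed by name, with no threshold on their values but with earlier results of these data known. It consisted of 24 glycolysis members, which are glucose transporters, glycolytic enzymes, regulators of pyruvate use and lactate carriers, and of 14 other targets of the hypoxia response, such as Car9 and Vegfa. All 38 had counts in every library, and all 38 passed the filter on low counts in each of the 4 comparisons made.

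In low oxygen, the hypoxia-inducible factors (HIFs) escape the oxygen-dependent prolyl hydroxylases that otherwise mark them for destruction through the von Hippel-Lindau protein. HIFs then bind short promoter and enhancer elements and raise the transcription of genes for glucose uptake, glycolysis and lactate export, of angiogenic and pH-regulating proteins, of mitophagy receptors and of collagen-modifying enzymes. Bone and bone marrow are low in oxygen, and skeletal stem cells are known to rely strongly on glycolysis.

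There were 11 RNA-seq libraries of MSCs, all grown at 2% oxygen, and the labels give no genetic change and no drug for any group. The methods of the study name C57BL/6N mice and describe MSCs that grew out of hind limb bone chips before they were sorted. Young mice were 3 to 5 months and old mice 18 to 22 months of age. The 4 young libraries of batch A and the 3 old libraries of batch C each stood alone in their batch, and batch B joined 2 young with 2 old libraries. The labels do not say what a batch was or how many animals a library came from, so p-values measure only the spread between these libraries, which may be technical. Old and young cells shared a batch in batch B alone, and no library was grown at another oxygen level. The effect of oxygen itself was therefore not measured here. Both markers used in the study to sort MSCs were well detected, with 270.1 to 778 CPM (counts scaled by library size with TMM factors) for Ly6a, which encodes Sca-1, and 109 to 289 CPM for Pdgfra, which encodes CD140a. Ptprc, which encodes the excluded marker CD45, was present at 3.47 to 22.2 CPM.

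Libraries held 11969336 to 20315934 counts. A level of 3 counts, used as the floor of detection, corresponded to 0.156 to 0.253 CPM. Batch C stood apart from the others over the whole transcriptome, and markers of other cells moved with the batches. Summed over 18 macrophage and leukocyte markers, the level was 899 to 2057 CPM in young batch A, 494 and 1040 CPM in young batch B, 1046 and 1478 CPM in old batch B and 192 to 229 CPM in old batch C libraries. The sum over 12 proliferation markers was 357 to 653 CPM in young batch A, 228 and 260.0 CPM in young batch B, 292 and 425 CPM in old batch B and 598 to 684 CPM in old batch C libraries. Osteoblast markers summed to 52644 to 61986 CPM in batch A, 22607 to 42858 CPM in batch B and 18901 to 20116 CPM in batch C. Their mean log2 CPM was instead highest in batch C, at 5.42 to 5.86. It was 4.11 to 4.83 in batch A and 4.36 to 4.83 in batch B. In bulk RNA, fewer cells of a type and less RNA per cell cannot be told apart.

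Promoters of 5 members on which the results below turn are shown first. Each line gives the 250 bases before the most upstream start of the gene in RefSeq (GRCm38.p6), read in the direction of the gene, and capitals mark the core of the hypoxia response element, searched as ACGTG and GCGTG on both strands. On the reverse strand ACGTG reads CACGT, and CACGTG, the E-box, holds the core on both strands.
Car9 (chr4:43506776-43507025, plus strand): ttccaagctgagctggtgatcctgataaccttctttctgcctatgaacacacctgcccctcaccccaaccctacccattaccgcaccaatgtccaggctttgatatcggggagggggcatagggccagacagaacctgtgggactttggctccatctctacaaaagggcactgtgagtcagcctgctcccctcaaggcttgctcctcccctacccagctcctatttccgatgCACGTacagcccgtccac
Vegfa (chr17:46032378-46032627, minus strand): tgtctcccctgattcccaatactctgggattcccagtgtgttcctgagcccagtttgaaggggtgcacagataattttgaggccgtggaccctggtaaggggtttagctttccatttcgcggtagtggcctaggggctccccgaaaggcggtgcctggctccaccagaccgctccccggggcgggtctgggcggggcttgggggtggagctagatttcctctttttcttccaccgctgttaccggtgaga
Ddit4 (chr10:59951771-59952020, minus strand): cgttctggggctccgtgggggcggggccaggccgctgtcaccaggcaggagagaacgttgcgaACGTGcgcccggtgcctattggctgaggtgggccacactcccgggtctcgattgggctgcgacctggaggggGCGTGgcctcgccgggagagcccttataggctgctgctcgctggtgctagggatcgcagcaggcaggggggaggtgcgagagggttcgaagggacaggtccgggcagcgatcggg
Pgk1 (chrX:106186850-106187099, plus strand): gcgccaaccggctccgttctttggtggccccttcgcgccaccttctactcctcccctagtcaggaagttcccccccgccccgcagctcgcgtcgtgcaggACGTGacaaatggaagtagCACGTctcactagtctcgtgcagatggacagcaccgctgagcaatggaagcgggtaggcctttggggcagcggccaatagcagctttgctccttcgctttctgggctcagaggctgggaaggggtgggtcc
Ldha (chr7:46845554-46845803, plus strand): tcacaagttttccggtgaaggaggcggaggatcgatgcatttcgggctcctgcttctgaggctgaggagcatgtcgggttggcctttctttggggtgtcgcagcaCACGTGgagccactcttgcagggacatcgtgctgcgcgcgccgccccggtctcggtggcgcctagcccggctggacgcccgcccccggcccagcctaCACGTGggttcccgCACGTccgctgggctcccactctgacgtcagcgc

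Car9, which encodes a membrane carbonic anhydrase that helps to regulate pH and is among the most oxygen-sensitive HIF targets, had a single ACGTG core in the window from 250 bases before to 50 bases after its start. It began 18 bases before this RefSeq start, but inside the gene as annotated in GENCODE M21, which begins at 43506966. In Ldha, which encodes the lactate dehydrogenase subunit that makes lactate, 5 matches to ACGTG were found, 4 of which belong to 2 E-boxes, beginning 145 and 48 bases before the start. Pgk1, the gene of the first ATP-producing enzyme of glycolysis, had matches 150 and 131 bases before the start, and Ddit4, a stress-induced inhibitor of mTOR, had a match 187 bases before it. For Vegfa, the gene of the main angiogenic growth factor, 2 windows were listed. The more upstream one, shown above, held neither core. The other (chromosome 17, 46025114 to 46025413) held 1 ACGTG and 1 GCGTG. This second window lies inside the gene as annotated in GENCODE M21 (46016993 to 46032369), and only through it is Vegfa counted below as holding ACGTG. Of the 38 members, 35 were listed in the promoter table, and 23 of them (65.7%) had at least 1 window with ACGTG, compared with 21.8% of all 27025 genes. The share was 60.9% of 23 glycolysis members and 75.0% of 12 other targets. These letters are a description of the windows, and nothing was measured on binding.

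The level of each gene per length of transcript showed which members dominated. In young batch A libraries, Pkm (pyruvate kinase), Aldoa (aldolase), Eno1 (enolase) and Ldha lay at 879, 799, 776 and 742 CPM per kb and ranked 52, 63, 68 and 76 among 13699 genes. Pgk1 and Tpi1 followed with 536 and 475 CPM per kb. Gapdh had 471 CPM per kb, but its longest annotated transcript, of 3289 bases, has 1 exon and is not the spliced mRNA, so that this value is too low and gives Gapdh no place in the order. The isozymes typical of other tissues were low, with 1.20 CPM per kb for Eno2, 0.72 for Slc2a3 and 3.95 for Aldoc. Among the other targets, both collagen prolyl hydroxylases were highest, with 121 CPM per kb for P4ha2 and 111 for P4ha1, whereas Car12 reached 0.44 CPM per kb. The 38 members together took 1.01% to 1.64% of all counts of a library. The 24 glycolysis members summed to 9699 to 13344 CPM in young batch A, 13586 and 13232 CPM in young batch B, 14142 and 13972 CPM in old batch B and 9227 to 9604 CPM in old batch C libraries. The 14 other targets summed to 1512 to 2227 CPM over all libraries. Reads of several members can be shared with near-identical copies. Of all 150-base stretches of the transcript, 66.05% occurred in other annotated genes for Pgk1, 49.0% for Eno1, 37.9% for Pgam1, 28.3% for Higd1a and 18.5% for Bnip3, so that the values of these genes are uncertain to that extent.

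The first comparison asked whether age changed these genes once batch was taken into account. Within batch B, old MSCs had less mRNA of Car9, of Adm, a vasodilator peptide, and of Ndrg1, a stress- and differentiation-related gene, and more of Ddit4. Thus 4 of 14 other targets passed the threshold of an adjusted p of 0.05, 3 lower and 1 higher, while 0 of 24 glycolysis members did. By the quasi-likelihood test of edgeR, 2.23% of all 16132 genes were called, 0.694% higher and 1.54% lower. Limma-trend and DESeq2 also called 0 of the 24. At an unadjusted p under 0.05 edgeR found 2 of them, Slc2a3 and Pfkfb4, compared with 2597 of all 16132 genes. The median log2 fold change was 0.02 over the glycolysis members and -0.04 over the other targets, against 0.0044 over all genes tested. In old batch C against young batch A, where age and batch change together, Adm was higher (0.25) and Ddit4 lower (-1.24). Car9 (-0.40) and Ndrg1 (-0.61) were lower there as well. The age coefficient of this fit is determined by batch B, and the other libraries contribute to the estimate of the spread. The mean squared difference per gene between 2 libraries, relative to counting noise, was 48.5 in young and 22.1 in old batch B. It was 5.38 to 17.4 in batch A and 3.07 to 4.85 in batch C. The shared estimate may therefore be too small for batch B.

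Car9 (ENSMUSG00000028463, chromosome 4, 43506966 to 43513729, GRCm38) was measured at 49.6 and 56.6 CPM in young batch B and at 12.3 and 20.3 CPM in old batch B libraries. Both old libraries of batch B lay below all 9 others, since young batch A libraries reached 36.7, 30.6, 44.0 and 44.3 CPM and old batch C libraries 28.3, 30.0 and 26.6 CPM. The log2 fold change was -1.70 (SE 0.20, 95% interval -2.13 to -1.27, adjusted p = 0.00062 by edgeR). It stayed past the threshold in all 24 alternatives, between -2.11 without batch B old replicate 2 and -0.87 without the batch term. Antisense exons of Gm12454 overlap those of Car9, and since the counting is not stated to use strand, reads of both cannot be told apart. Exons of other genes on the opposite strand also overlap those of further members, among them Ndrg1, Bnip3, Higd1a, Slc2a1, Tpi1, Aldoa and Gapdh.

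Adm reached 112 and 126 CPM in young batch B and 70.7 and 86.8 CPM in old batch B libraries, so that the groups did not overlap. Its log2 fold change was -0.59 (SE 0.13, adjusted p = 0.021 by edgeR). Without batch B old replicate 1, the difference was -0.44 with an adjusted p of 0.31, and with scaling by total counts the adjusted p was 0.055. Without the batch term the difference of Adm was -0.059, with an adjusted p of 0.83. Ndrg1 reached 130 and 109 CPM in young batch B and 57.1 and 90.5 CPM in old batch B libraries, again without overlap. Its log2 fold change of -0.69 (SE 0.17, adjusted p = 0.04 by edgeR) was -0.39 without batch B old replicate 1, with an adjusted p of 0.39, and -0.56 without batch B young replicate 1, with an adjusted p of 0.20. Leaving out batch A young replicate 3 or 4, or any library of batch C, gave adjusted p-values from 0.05003 to 0.074 for Ndrg1, and scaling by total counts gave 0.0698. Batch B old replicate 1 also had the largest share of counts from the mitochondrial genome, 3.74% compared with 0.71% to 1.85% in the other libraries. With the genes of the mitochondrial genome removed from the counts, Car9, Adm, Ndrg1 and Ddit4 were all still called. This removal leaves the counts of other genes unchanged, so the part of the high mitochondrial share in the calls was not tested.

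Ddit4 differed in the other direction, from 91.0 and 85.3 CPM in young batch B to 118 and 126 CPM in old batch B libraries. The groups did not overlap, and the log2 fold change was 0.46 (SE 0.11, adjusted p = 0.033 by edgeR). The adjusted p rose to 0.13 without batch B old replicate 1, to 0.18 without batch B old replicate 2 and to between 0.052 and 0.053 without batch A young replicate 3, batch B young replicate 1 or batch C old replicate 2. Without the batch term, the difference of Ddit4 was -0.31, with an adjusted p of 0.54. When batch B was fitted alone, Adm, Ndrg1 and Ddit4 had nearly the same log2 fold changes (-0.59, -0.69 and 0.47) but adjusted p-values of 0.17, 0.21 and 0.27 by edgeR, and Car9 was the member still called. With the proliferation markers as a covariate, Car9 alone of the 38 members was called, and with the macrophage and leukocyte markers as a covariate Car9, Adm and Ndrg1 were called. Between ages, edgeR called 0 of 18 macrophage and leukocyte markers and 0 of 12 proliferation markers, limma-trend 0 of both, and DESeq2 2 and 0. At an unadjusted p under 0.05 edgeR found 9 macrophage and leukocyte and 6 proliferation markers, all of them higher in old cells. At that level 2597 of all 16132 genes were found in either direction. Of the other marker lists, 2 of 10 mesenchymal stem cell markers were called lower and 1 of 8 osteoblast markers higher by edgeR. This compares with 2.23% of all genes called, and the part of these markers in the result was not tested.

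Vegfa did not pass the test between ages. It lay at 81.7 and 74.4 CPM in young batch B and at 79.9 and 74.2 CPM in old batch B libraries, which overlapped, with a log2 fold change of -0.02 and a 95% interval from -0.26 to 0.21. The abundant enzymes did not pass the test either, with wider intervals than that of Vegfa. Gapdh had a log2 fold change of -0.0017 (95% interval -0.31 to 0.31), Aldoa of 0.0093 (-0.24 to 0.26), Pkm of 0.03 (-0.30 to 0.37), Ldha of 0.10 (-0.24 to 0.44) and Slc2a1, the main glucose transporter, of -0.02 (-0.29 to 0.25). Pgk1 was measured at 1526 and 1831 CPM in young batch B and at 1975 and 2112 CPM in old batch B libraries. Although these did not overlap, its log2 fold change of 0.28 (95% interval -0.02 to 0.59) had an adjusted p of 0.35 by edgeR. In all, the libraries of batch B did not overlap between ages for 10 of 24 glycolysis members, 5 higher and 5 lower in old cells, and for 8 of 14 other targets, 3 higher and 5 lower, compared with 39.7% of all genes tested, 19.2% higher and 20.6% lower. The range of low members was wider, with a 95% interval from -0.0089 to 1.82 for Car12, which had 28 to 61 counts in the libraries of batch B.

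**Figure D1:**
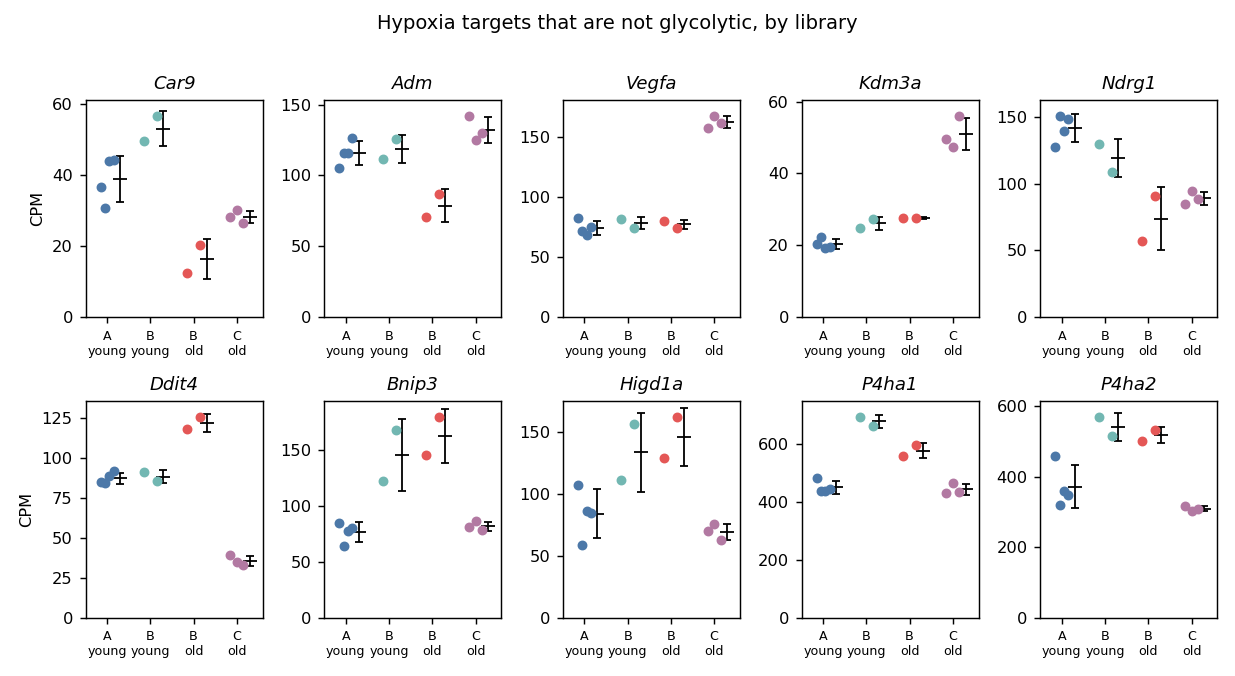
CPM (TMM-scaled) of 10 targets that are not glycolytic, with 1 point per library for young batch A (4 libraries), young batch B (2), old batch B (2) and old batch C (3), and the mean ± SD beside the points. Car9, Adm and Ndrg1 were lower in both old batch B than in both young batch B libraries, Ddit4 was higher, and Vegfa and Kdm3a were highest in the 3 batch C libraries.

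The second comparison asked how the young libraries of batch B differed from those of batch A, with age held constant. Batch B libraries had more mRNA of mitochondrial targets, of collagen prolyl hydroxylases and of a few glycolysis members. There were 9 members past the threshold, 3 of 24 glycolysis members and 6 of 14 other targets, and all 9 were higher in batch B. Of 14840 genes tested, 18.1% were called, 9.39% higher and 8.71% lower. With all libraries kept, none of the 38 had a lower value past the threshold by edgeR, limma-trend or DESeq2. At an unadjusted p under 0.05 by edgeR, 7 glycolysis members and 7 other targets were higher and 0 were lower. At that level, 5028 of all 14840 genes were found in either direction. Libraries did not overlap for 6 glycolysis members and 8 other targets, all higher in batch B, compared with 40.9% of all genes, 20.1% higher and 20.8% lower. The median log2 fold change was 0.06 over the glycolysis members and 0.43 over the other targets, against 0.0093 over all genes.

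Among the targets, all 3 mitochondrial members passed the test. Bnip3 and Bnip3l, the receptors that direct mitochondria to autophagy, differed by log2 fold changes of 0.94 (SE 0.15, adjusted p = 0.0024 by edgeR) and 0.57 (SE 0.13), and Higd1a, which stabilises the respiratory chain, by 0.69 (SE 0.20). Bnip3 lay at 84.9, 64.3, 77.7 and 80.7 CPM in batch A and at 122 and 168 CPM in young batch B libraries. The groups did not overlap, and Bnip3 was called in all 15 alternatives. P4ha1 and P4ha2, the catalytic subunits of the collagen prolyl hydroxylases, were higher by 0.61 (SE 0.12) and 0.57 (SE 0.15). P4ha1 lay at 483, 438, 438 and 443 CPM in batch A and at 695 and 662 CPM in batch B, without overlap. Car9 differed by 0.47 (SE 0.15, adjusted p = 0.049 by edgeR), a call that was kept in 7 of 15 alternatives and had an adjusted p of 0.0503 by limma-trend and of 0.052 with RLE factors, and Vegfa by 0.10 with a 95% interval from -0.16 to 0.35.

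Several of these calls rested on single libraries. Without batch B young replicate 2, adjusted p-values by edgeR were 0.0504 for Pgk1, 0.13 for Bnip3l, 0.32 for Higd1a, 0.28 for Car9 and 0.068 for P4ha2, and 4 members were called instead of 9. Leaving out batch B young replicate 1 gave 0.058 for P4ha2. The call of Bnip3l was also lost with the correction for transcript length and GC content. With the replicate number as a block, Pdk1, Slc16a1 and P4ha1 were not called (adjusted p = 0.12, 0.12 and 0.22 by edgeR), the only alternative that ended their calls. Pgk1, Bnip3l, Car9 and P4ha2 were not called with the block either. Without batch A young replicate 2, 3 or 4, the adjusted p-values were 0.055 to 0.066 for Higd1a, 0.0504 to 0.11 for Car9 and 0.062 to 0.072 for P4ha2, and without batch A young replicate 1 the value was 0.078 for Car9.

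Among the glycolysis members, Pgk1, Pdk1 and Slc16a1 were higher in batch B. Pgk1 lay at 1124, 812, 1005 and 971 CPM in batch A and at 1526 and 1831 CPM in young batch B libraries, with a log2 fold change of 0.80 (SE 0.15, adjusted p = 0.0052 by edgeR). Pdk1, the kinase that blocks the entry of pyruvate into mitochondria, lay at 139, 111, 120 and 119 CPM in batch A and at 179 and 202 CPM in batch B, with a log2 fold change of 0.66 (SE 0.13). Slc16a1, which encodes the lactate and pyruvate carrier MCT1, lay at 57.9, 42.9, 44.3 and 43.0 CPM in batch A and at 79.1 and 70.6 CPM in batch B, with a log2 fold change of 0.69 (SE 0.14). None of these 3 overlapped between the groups. The steps from glucose entry to fructose bisphosphate had no called member among 10, and Slc2a1, Hk2, Gpi1 and Pfkl had log2 fold changes of 0.04, -0.16, 0.01 and -0.11. Hk1 had -0.19 in this fit and -0.54 without batch B young replicate 1, so its difference depended on a single library. Pfkfb3, among those 10, had 0.47 with an adjusted p of 0.059 by edgeR. It was called higher in 4 of 15 alternatives, with adjusted p-values of 0.027 with total counts, 0.0095 without the filter on low counts, 0.020 with the length and GC correction and 0.016 without batch A young replicate 1. Of the later steps, Pgam1 (0.39, adjusted p = 0.069 by edgeR) was also called higher in 4 of 15 alternatives, among them DESeq2. Aldoc (0.54) was called higher in 2 and Ldha (0.41) in 1. In this comparison 8 of 18 macrophage and leukocyte markers and 11 of 12 proliferation markers were lower in batch B. So were 4 of 8 osteoblast and 1 of 5 tested adipocyte markers, and 0 markers of these 4 lists were called higher. Their part in the result was not tested.

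**Figure D2:**
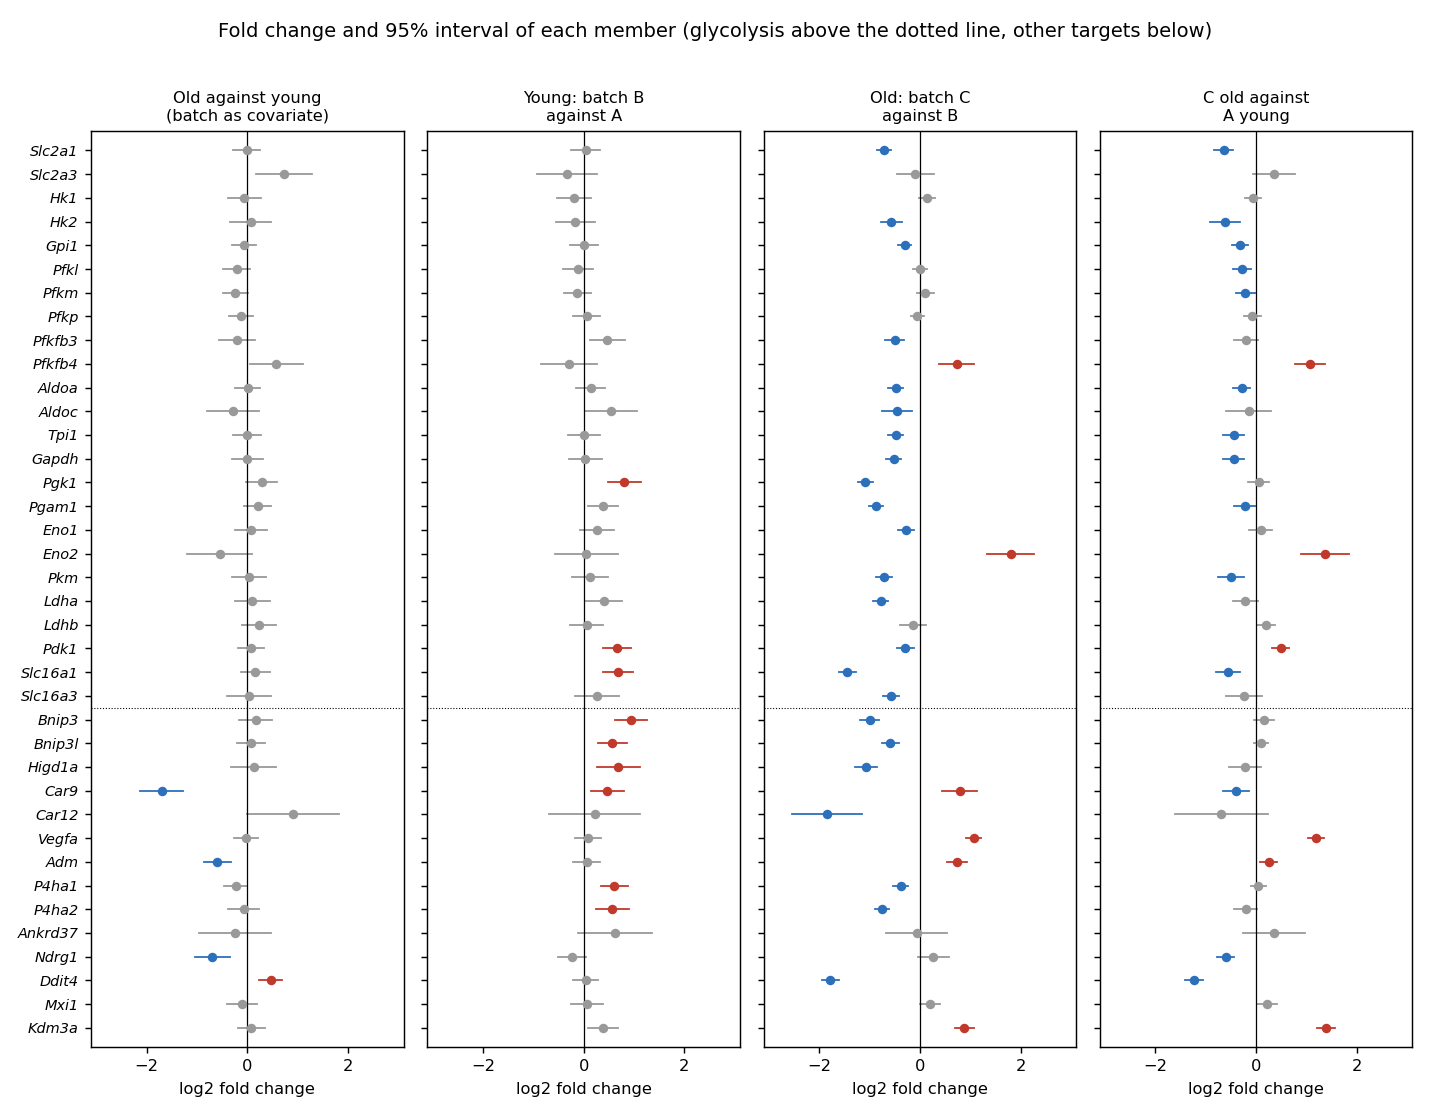
Log2 fold change of the 38 members with its 95% interval in the 4 comparisons, for glycolysis members above and other targets below the dotted line. Red and blue points passed an adjusted p of 0.05 as higher and lower, and grey points did not. In the age comparison Car9 lies farthest from 0 at -1.70, and in batch C against batch B most glycolysis members lie below 0 while Vegfa, Kdm3a, Car9 and Adm lie above.

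The third comparison set batch C against batch B within old cells. Most glycolysis genes were lower in batch C, including every abundant enzyme of lower glycolysis and both lactate carriers, whereas Vegfa, Kdm3a, Car9 and Adm were higher. Of 24 glycolysis members, 16 were lower and 2 were higher, and of 14 other targets 7 were lower and 4 were higher. This has to be read against 64.7% of all 15651 genes called, 32.1% higher and 32.6% lower. Libraries did not overlap for 21 glycolysis members, 4 higher and 17 lower, and for 12 other targets, 5 higher and 7 lower, compared with 76.3% of all genes, 38.8% higher and 37.4% lower. The median log2 fold change was -0.47 over the glycolysis members and -0.23 over the other targets, against 0.02 over all genes. With scaling by total counts, 12 glycolysis members were lower and 5 higher, and the median over all genes moved to 0.22. All 18 macrophage and leukocyte markers were lower in batch C, while 9 of 12 proliferation, 5 of 8 osteoblast and 4 of 5 tested adipocyte markers were higher. In the osteoblast list 1 marker was lower. The part of these markers in the result was not tested.

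The strongest decrease among glycolysis members was that of Slc16a1, from 82.6 and 84.9 CPM in old batch B to 32.1, 32.3 and 28.1 CPM in old batch C libraries, with a log2 fold change of -1.44 (SE 0.08, adjusted p = 1.9e-08 by edgeR). Pgk1 was lower at 982, 984 and 940 CPM in batch C, with a log2 fold change of -1.08 (SE 0.07). Ldha lay at 1912 and 1866 CPM in old batch B and at 1128, 1113 and 1081 CPM in batch C, with a log2 fold change of -0.78 (SE 0.07). Groups of libraries did not overlap for any of these. Pgam1, Slc2a1 and Pkm differed by -0.86, -0.71 and -0.71, the gene of the second lactate carrier Slc16a3 by -0.57, Hk2 by -0.57, Gapdh by -0.52, and Tpi1 and Aldoa both by -0.48, each with an SE of at most 0.09. The calls of Gpi1, Eno1, Pdk1 and Aldoc, with log2 fold changes of -0.30, -0.28, -0.29 and -0.45, were lost with scaling by total counts. Aldoc had adjusted p-values of 0.061 without batch B old replicate 2 and of 0.06011 without batch C old replicate 3.

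Both glycolysis members that were higher in batch C were minor isozymes. Eno2, the neuronal enolase, had 2.22 and 2.40 CPM in old batch B and 9.53, 7.92 and 6.82 CPM in old batch C libraries, with a log2 fold change of 1.81 (SE 0.21, adjusted p = 1.4e-05 by edgeR). Pfkfb4, which makes and degrades the activator of phosphofructokinase, had 5.12 and 6.41 CPM in old batch B and 9.41, 9.03 and 10.3 CPM in batch C, with a log2 fold change of 0.73 (SE 0.16). Their libraries did not overlap. Pfkfb3, the related isozyme with mainly kinase activity, was lower by -0.50 (SE 0.08). The 3 phosphofructokinase genes Pfkl, Pfkm and Pfkp did not pass the test, with log2 fold changes of 0.0029, 0.11 and -0.05, but their calls depended on the setting. With a correction for transcript length and GC content, Pfkl (-0.31) and Pfkp (-0.61) were called lower, and with scaling by total counts Pfkl (0.20) and Pfkm (0.30) were called higher.

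Among the other targets, both secreted vascular factors were higher in batch C. Vegfa lay at 157, 167 and 161 CPM in old batch C libraries, above the 68.3 to 82.0 CPM of all 8 libraries of batches A and B, and its log2 fold change against old batch B was 1.07 (SE 0.07, adjusted p = 8.6e-08 by edgeR). Adm lay at 142, 125 and 130 CPM in batch C, with a log2 fold change of 0.74 (SE 0.09). Kdm3a, a histone demethylase that itself requires oxygen, lay at 49.6, 47.4 and 56.0 CPM in batch C and at 27.5 and 27.7 CPM in old batch B, with a log2 fold change of 0.88 (SE 0.09). Car9 was higher in batch C by 0.79 (SE 0.16), since its level in old batch B was the lowest of all groups. In contrast, Bnip3, Bnip3l and Higd1a were lower by -0.99, -0.59 and -1.08, P4ha1 and P4ha2 by -0.39 and -0.75, and Car12 by -1.85 (SE 0.32) at 0.72 to 4.11 CPM. Ddit4 showed the smallest p of the members, with 39.2, 34.5 and 32.7 CPM in batch C against 118 and 126 CPM in old batch B, and a log2 fold change of -1.78 (SE 0.08, adjusted p = 6.6e-09).

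**Figure D3:**
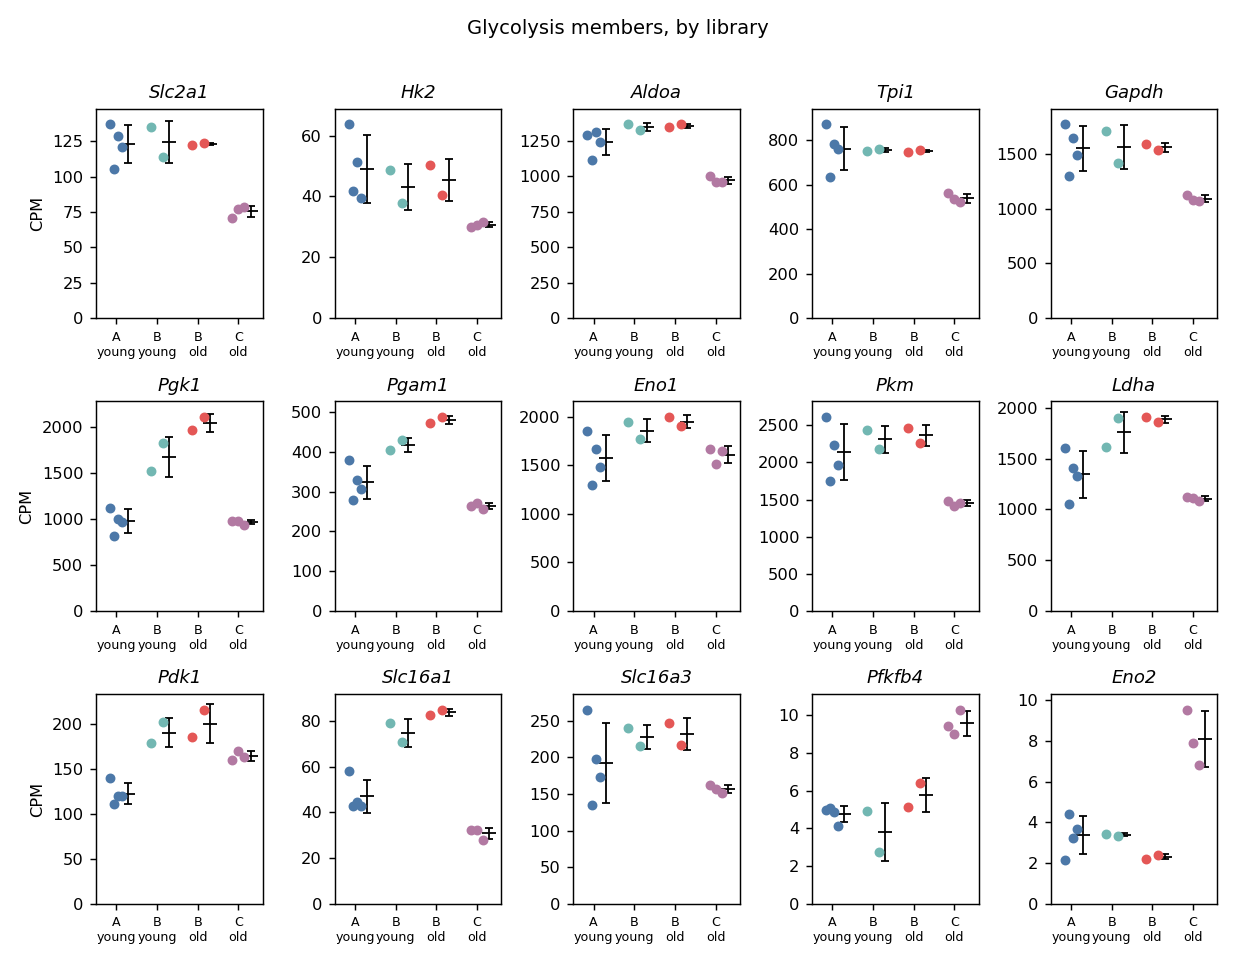
CPM (TMM-scaled) of 15 glycolysis members, with 1 point per library in the 4 groups and the mean ± SD beside the points. Pgk1, Pgam1, Ldha and Slc16a1 were lower in the 3 old batch C than in both old batch B libraries, whereas Pfkfb4 and Eno2 were highest in batch C.

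The last comparison set old batch C against young batch A libraries, which share no library with batch B. Age and batch change together here and cannot be told apart. Vegfa and Kdm3a were again higher in the old batch C libraries and Slc2a1, Hk2 and Slc16a1 lower, while Pgk1, Ldha and Eno1 did not pass the test. Of 24 glycolysis members 11 were lower and 3 were higher, but with scaling by total counts 3 were lower and 9 were higher, as the median over all genes moved from 0.02 to 0.31. Of 14 other targets 3 were lower and 3 were higher with TMM factors, and 2 were lower and 7 higher with total counts. Over all 15021 genes, 63.8% were called, 32.0% higher and 31.9% lower. Libraries did not overlap for 16 glycolysis members, 3 higher and 13 lower, and for 6 other targets, 2 higher and 4 lower, compared with 64.5% of all genes, 29.5% higher and 35.0% lower. The median log2 fold change was -0.22 over the glycolysis members and 0.07 over the other targets with TMM factors, and 0.07 and 0.36 with total counts. All 18 macrophage and leukocyte markers were lower and all 5 tested adipocyte markers higher in the old batch C libraries. Of 8 osteoblast markers, 6 were higher and 1 was lower. The part of these markers in the result was not tested.

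Members that kept their call and direction in all 16 alternatives of this comparison were Slc2a1, Hk2, Pfkfb4, Eno2, Pdk1, Slc16a1, Vegfa, Ndrg1, Ddit4 and Kdm3a. Kdm3a lay at 20.3, 22.5, 19.2 and 19.5 CPM in young batch A libraries, with a log2 fold change of 1.38 (SE 0.09, adjusted p = 7.0e-08 by edgeR). Vegfa lay at 82.0, 71.8, 68.3 and 74.7 CPM in young batch A, with a log2 fold change of 1.18 (SE 0.07). The level of Ddit4 in young batch A was 85.0, 83.9, 88.5 and 91.4 CPM, and the log2 fold change was -1.24 (SE 0.08). Slc2a1 lay at 137, 105, 129 and 121 CPM in young batch A and at 70.8, 77.1 and 78.5 CPM in old batch C, with a log2 fold change of -0.65 (SE 0.09). None of these 4 overlapped between the groups. Ndrg1 was lower by -0.61 (SE 0.08), Slc16a1 by -0.55 (SE 0.11) and Hk2 by -0.62 (SE 0.14), while Pdk1 was higher by 0.48 (SE 0.08), Pfkfb4 by 1.06 (SE 0.14) and Eno2 by 1.36 (SE 0.22).

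The remaining calls of this comparison depended on the scaling or on single libraries. Gapdh, Tpi1, Pkm and Gpi1, with log2 fold changes of -0.45, -0.44, -0.50 and -0.32, and Car9 with -0.40 were not called with total counts, and Aldoa, Pgam1, Pfkl and Pfkm, with -0.29, -0.23, -0.28 and -0.21, changed sign without a call. Adm was higher by 0.25 (SE 0.08), with an adjusted p of 0.014 by edgeR and of 0.10 without batch C old replicate 1. Pgam1 had adjusted p-values of 0.0704 to 0.12 without batch A young replicate 1 or 3 or any library of batch C. For Pfkm, the range was 0.082 to 0.13 without batch A young replicate 2 or 4 or batch C old replicate 1 or 2. With the length and GC correction Aldoa, Pgam1 and Pfkm were not called, and neither was Pfkm by DESeq2 (adjusted p = 0.054). In the other direction, Pgk1 (0.34) and Eno1 (0.38) were called higher with total counts, and Ldha was called lower without the filter on low counts and without batch A young replicate 2 (-0.33).

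The level of Car9 was highest in young batch B (53.1 ± 4.96 CPM, SD, n = 2), followed by young batch A (38.9 ± 6.52, n = 4), old batch C (28.3 ± 1.71, n = 3) and old batch B (16.3 ± 5.64, n = 2). The differences between these neighbours passed the test in the fits reported, but that of young batch B against A in 7 of 15 alternatives only and that of old batch C against young batch A not with scaling by total counts. Pgk1, of whose 150-base stretches 66.05% occur in other genes, was highest in old batch B (2043 ± 97.1 CPM) and young batch B (1678 ± 215), which did not pass the test against each other, followed by young batch A (978 ± 128) and old batch C (969 ± 24.8), which did not either. Vegfa had 1 high group, old batch C (162 ± 4.83 CPM), and its other groups at 78.1 ± 5.16, 77.0 ± 4.02 and 74.2 ± 5.82 CPM did not pass a test against each other where they were compared.

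Ratios within a library do not depend on the scaling. Per kb of transcript, Car9 had 2.93% and 2.79% of the level of Pgk1 in young batch B but 0.56% and 0.87% in old batch B libraries. The ratio was 2.95% to 4.11% in young batch A and 2.55% to 2.75% in old batch C libraries, so that both old batch B libraries stood below all others. Vegfa had 8.47% to 9.07% of the level of Pgk1 in old batch C and 1.86% to 4.67% in all other libraries. Slc16a1 had 18.2% to 20.1% of the level of Slc16a3 in old batch C and 21.4% to 38.4% in the others. Hk2 reached 14.3% to 15.05% of Hk1 in old batch C and 18.1% to 28.5% elsewhere. Pfkfb4 reached 24.8% to 29.2% of Pfkfb3 in old batch C and 5.42% to 12.9% elsewhere, and Eno2 0.30% to 0.41% of Eno1 in old batch C and 0.081% to 0.25% elsewhere. These ratios are descriptions and carry no test.

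**Figure D4:**
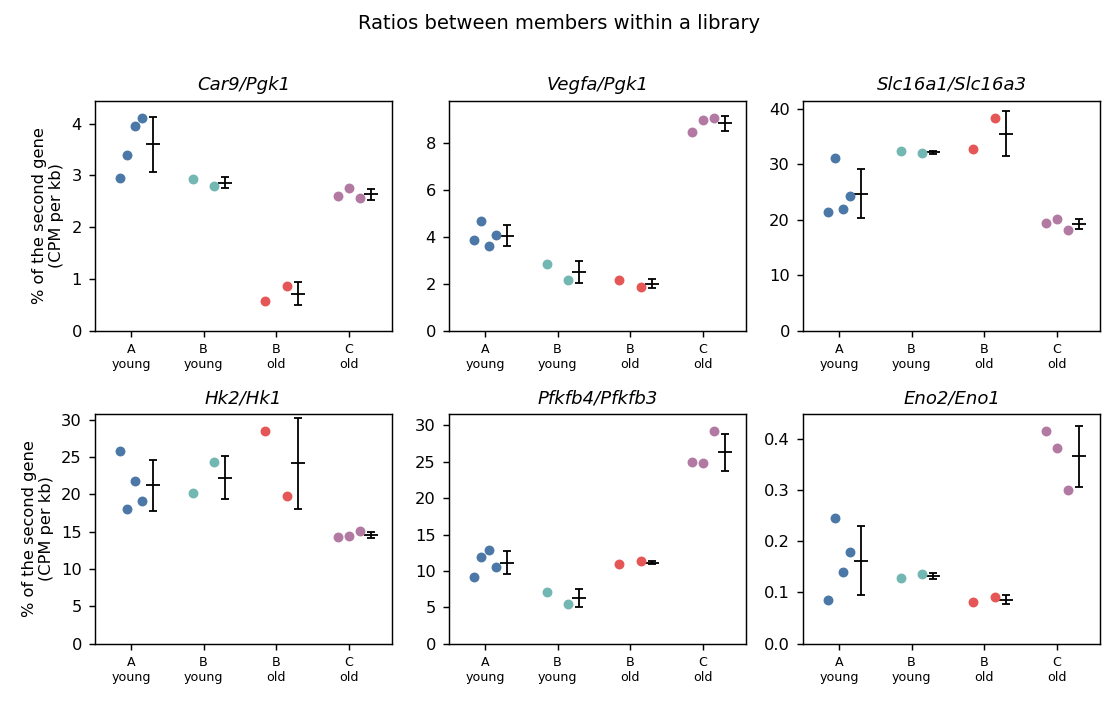
Level per kb of transcript of the first gene as a percentage of that of the second, with 1 point per library in the 4 groups and the mean ± SD beside the points. Car9/Pgk1 is lowest in both old batch B libraries at 0.56% and 0.87%, and Vegfa/Pgk1, Pfkfb4/Pfkfb3 and Eno2/Eno1 are highest in the 3 batch C libraries.

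The wider pathway was read from lists outside the 38 members. Of 24 other tested genes of glycolysis and pyruvate use, 1 was called between ages, Pdk4, a kinase that inhibits pyruvate dehydrogenase when fatty acids are burned. It lay at 49.3 and 57.2 CPM in young batch B and at 120 and 94.3 CPM in old batch B libraries, which did not overlap, with a log2 fold change of 1.01 (SE 0.14, adjusted p = 0.0016 by edgeR). Of 30 other hypoxia targets, 3 were lower between ages and 0 higher. These were Angptl4, an inhibitor of lipoprotein lipase, with -0.76 (SE 0.16), Cited2, a competitor of HIF for its coactivators, with -0.58 (SE 0.11), and Plod1, a collagen lysyl hydroxylase, with -0.54 (SE 0.12). Angptl4 was also the member of that list with the largest difference between batches in young cells, at 27.7, 29.9, 25.2 and 27.8 CPM in batch A and 70.5 and 90.1 CPM in batch B, with a log2 fold change of 1.56 (SE 0.13). Between ages, the calls of Angptl4, Cited2 and Plod1 were lost without batch B old replicate 1, with adjusted p-values of 0.26, 0.12 and 0.26 by edgeR, and those of Cited2 and Plod1 without batch B old replicate 2, with 0.091 and 0.073. Plod1 also missed the threshold without batch B young replicate 1 (0.11) and without batch C old replicate 3 (0.052), whereas Pdk4 was called without each library.

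In the comparisons between batches the counts of the same lists have to be read against 18.1%, 64.7% and 63.8% of all genes called, compared with 2.23% between ages. Of the 30 other hypoxia targets, 8 were higher and 2 lower in batch B against A in young cells, led by Angptl4, the transferrin receptor gene Tfrc (1.26) and Errfi1 (0.84), an inhibitor of EGF receptor signalling, and with scaling by total counts 9 were higher and 0 lower. In batch C against batch B in old cells, 10 were higher and 13 lower (14 and 11 with total counts), with Errfi1 at 1.66, Tfrc at -1.56 and Wsb1 at 1.27 as the largest. In old batch C against young batch A, 8 were higher and 11 lower (17 and 7 with total counts), with Errfi1 at 2.42, Wsb1 at 1.81 and Pgf, a relative of Vegfa, at 1.39. Of the 24 other glycolysis genes, 2 were lower in batch B against A in young cells, Hk3 (-1.27) and Pdk2 (-0.58), while with total counts 4 were also higher. Batch C against batch B in old cells gave 8 higher and 11 lower genes (10 and 7 with total counts), and old batch C against young batch A 6 higher and 9 lower (14 and 2 with total counts). In both, Gapdhs, Hk3 and the insulin-dependent glucose transporter gene Slc2a4 were the largest, with log2 fold changes of 2.70, -1.89 and 1.74 in the first and of 1.94, -2.97 and 2.14 in the second. Hk3 is a hexokinase typical of myeloid cells. Without batch B young replicate 2, the calls of Tfrc, Errfi1, Hk3 and Pdk2 between batches A and B were lost, with adjusted p-values of 0.083, 0.098, 0.19 and 0.15 by edgeR.

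Genes of the oxygen-sensing machinery itself did not pass the test between ages, with 0 of 7 called by edgeR, limma-trend or DESeq2. At an unadjusted p under 0.05 edgeR also found 0 of the 7, compared with 2597 of all 16132 genes. Hif1a, which encodes the oxygen-regulated HIF subunit, had a log2 fold change of -0.09 (95% interval -0.35 to 0.18). The counts of these 7 genes between batches stand beside 18.1% of all genes called in young cells, 64.7% in old cells and 63.8% in old batch C against young batch A. In batch B against A in young cells, 2 were higher and 2 lower, led by Hif1a (0.79, SE 0.13), Hif1an (-0.53) and Arnt2 (-0.51), and without batch B young replicate 2 the adjusted p-values of Hif1an and Arnt2 were 0.12 and 0.15 by edgeR. Arnt2 also missed the threshold without batch A young replicate 2, 3 or 4, with 0.055 to 0.071. Hif1a lay at 380, 328, 314 and 311 CPM in young batch A, 594 and 539 CPM in young batch B, 491 and 574 CPM in old batch B and 259, 263 and 261 CPM in old batch C libraries. In batch C against batch B in old cells, 2 were higher and 3 lower, with Vhl, the gene of the von Hippel-Lindau protein, at -1.69 (SE 0.08), Hif1a at -1.03 (SE 0.07) and Arnt2 at 0.74 (SE 0.11). In old batch C against young batch A, 4 were lower and 0 higher (2 and 2 with total counts, 5 and 0 by DESeq2 and 4 and 0 by limma-trend), led by Vhl (-1.004), the prolyl hydroxylase gene Egln2 (-0.52) and Hif1an (-0.41). Since HIF activity is set mainly by protein stability, these mRNA levels are not a measure of it.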

How the data were processed

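Polyadenylated RNA of cultured MSCs was sequenced in 11 libraries. The authors deposited raw counts, whole numbers per Ensembl gene and library, without normalisation. According to the methods of the study, reads of 150 bases were processed with zUMIs, STAR and featureCounts. Those methods describe an oxygen comparison, and the same processing was assumed here. The submitters' processing notes name GRCm38. Whether molecular identifiers were collapsed or strand was used is not given in the sources used here.

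Members were matched by symbol in GENCODE M21 (28179 of 28222 identifiers matched). Aldoa occurred on 2 identifiers, and the one with the most counts was used. Counts were tested as deposited with edgeR 4.0.16 (quasi-likelihood test, filterByExpr with a minimum count of 5, TMM, Benjamini-Hochberg over all genes tested, two-sided, threshold 0.05). The study used limma-trend, which was run as an alternative (limma 3.58.1), as was DESeq2 1.42.0, both in R 4.3.3. CPM used TMM-scaled totals, and CPM per kb the longest transcript. The age fit used all libraries with batch as a covariate, and the other fits only the groups compared. Other settings were RLE factors, scaling by total counts, no filter or a minimum count of 10, a length and GC correction (loess, span 0.3), removal of mitochondrial genome genes, the replicate number as a block, each library left out, and for age no batch term, batch B alone and 2 marker covariates. Totals of 11969336 to 20315934 counts limit the precision of the low members. Scripts were checked on simulated counts.

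Every member was considered. From the other lists, at most the 3 called genes with the largest change per comparison were named. Members and lists were chosen with earlier results of these data known. No library was left out, and no authors' comparison was used.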

Additional observations from a re-analysis of the deposited data

Results flagged for a closer look

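In batch A young libraries, the only group large enough for a test of single libraries, replicate 1 stood apart for 4 of 38 members, judged by the gap to the nearest library as a share of the range of the group. Slc16a1 lay at 57.9 CPM in replicate 1 and at 42.9 to 44.3 CPM in the others, a gap of 0.903 of the range. P4ha1 lay at 483 CPM against 438 to 443 CPM, a gap of 0.886. Car12 lay at 3.05 CPM against 1.07 to 1.30 CPM, a gap of 0.885, at 55 counts in replicate 1 and 13 to 16 in the others. Pfkp lay at 114 CPM against 94.5 to 97.5 CPM, a gap of 0.84. Chance flags about 1 in 20 groups, and all 4 values were highest in the same library, which also had the largest total of the batch with 20315934 counts.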

How the results depend on the processing

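Calls of members between ages, 4 in the fit reported, fell to 2 with scaling by total counts, to 1 with batch B alone and to 1 with the proliferation covariate, and lay between 1 and 4 when a library was left out. Between batches A and B in young cells, the 9 calls became 3 with the replicate block and 4 to 10 when a library was left out. The counts of 29 and 20 in the comparisons with batch C stayed within 1.5 times under every alternative run. Same-numbered libraries did not deviate together, with a correlation of 0.037 in the age comparison and of -0.11 and -0.077 in that of batches A and B. With 2 libraries in each group of batch B, the deviations mirror each other. These values therefore cannot decide whether the numbers pair the libraries. The replicate block gave 3 calls between ages and 29 and 20 in the comparisons with batch C.

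Without the batch term, the age difference of Vegfa became 0.78 and that of Ddit4 -0.31. With the length and GC correction, Hk1 and Pfkl became lower in batch C against B (-0.21 and -0.31), and Bnip3, Bnip3l and P4ha1 in batch C old against batch A young (-0.22, -0.29 and -0.20). With total counts, the last comparison gave 0.23 for Hk1, 0.21 for Pfkp, 0.014 for Pfkl, 0.078 for Pfkm, 0.0033 for Aldoa and 0.062 for Pgam1, since the scaling itself moves all genes upwards. The cause of the other changes was not tested. Of 2622 values of members under alternatives, 2480 kept their direction and side of the threshold or changed sign without a call in either fit (127 of them), 77 lost and 52 gained a call, and 13 reversed. The age comparison rests on 2 libraries per age, and depth limits low members such as Car12, with 28 to 61 counts in batch B.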
